A study of Homo sapiens with 8 samples.

Results

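BPH-1 cells, which grow from benign human prostate epithelium immortalized with the SV40 large T antigen, were profiled on Affymetrix human transcriptome arrays after exposure to Pao extract, which is prepared from the bark of the tree Geissospermum vellosii. The members were chosen by their titles and make up 4 of the 8 arrays of the series, 2 of BPH-1 cells with Pao extract at 250 μg/ml and 2 of BPH-1 cells with vehicle. The labels and a figure legend of the study give 48 h of treatment, while the study's methods give a shorter time for the arrays. All 4 BPH-1 arrays are of cells kept in RPMI medium with fetal bovine serum. The other 4 arrays hold WPMY-1 cells, a line of human prostate myofibroblasts, with the same treatments in DMEM. The extract was dissolved in DMSO and diluted in PBS, and what the vehicle held is not stated. BPH-1 is a single line, so the values describe that line and not the epithelium of a gland, and the T antigen of the line binds p53 and the retinoblastoma protein. Nothing states that each array had a culture of its own, so p-values here weigh a difference only against the spread of the arrays at hand, which may be technical.

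The array values are log2 values after RMA, a method that corrects the background, brings the arrays to a common distribution and summarises the probes of a probe set. A difference of 1 on this scale is a 2-fold difference. Of 67528 probe sets, 23781 carry 1 gene symbol, and with the brightest probe set kept for each gene they gave 22465 genes. The table holds no detection calls, so genes with a mean of 7 or more on the vehicle arrays were read as well above background, and 5863 genes met this level. The median over all genes was 5.72 and 5.76 on the Pao extract arrays and 5.72 and 5.79 on the vehicle arrays. Of 20 measured markers of epithelium, 17 met the level of 7. EPCAM, an epithelial adhesion molecule, had 9.44 and 9.47 with Pao extract and 9.38 and 9.29 with vehicle. The keratins KRT5, KRT8 and KRT18 all lay above 10 on every BPH-1 array. None of 8 measured markers of luminal prostate cells met the level of 7, and the median of these markers was 4.78 and 4.84 with Pao extract and 4.74 and 4.89 with vehicle. Markers of leukocytes, which the line should lack, had a median of 4.55 and 4.73 with Pao extract and 4.62 and 4.73 with vehicle, and the pan-leukocyte gene PTPRC had 2.35 and 2.38 against 2.42 and 2.41.

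Cells match their sterol supply to demand through the SREBP factors, which are held in the endoplasmic reticulum by INSIG proteins while sterol is plentiful and are cut and sent to the nucleus when it is scarce. There they act on most enzymes of the mevalonate and cholesterol pathway and on fatty acid synthesis, together with NF-Y, a factor that binds CCAAT boxes. Basal prostate epithelium is also known to respond to ligands of the EGF receptor, which are shed from the cell surface, and to NFκB and AP-1, which act on chemokines, proteases and the inducible cyclooxygenase. These pathways are the setting in which the values below are ordered.

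Among the 5863 genes well above background, 15 genes (0.256%) had a mean at least 1.4-fold higher with Pao extract than with vehicle, and for 9 genes (0.154%) it was lower by 1.4-fold or more. Over all 22465 genes the counts were 53 (0.236%) and 14 (0.0623%), so 38 of the higher and 5 of the lower genes lay below the level of 7. All 24 genes past 1.4-fold at this level had arrays that did not overlap between the groups, which a cutoff on the means of the same arrays favours. Without overlap lay 17.9% of the genes at this level on the higher side and 13.4% on the lower side, and 14.4% and 18.8% of all genes. By limma, no gene passed an adjusted p of 0.05 in BPH-1 cells (0% of all genes in either direction). At an unadjusted p under 0.05 from limma, 510 of the 22465 genes were higher and 417 lower. Of the 5863 genes at the level of 7, 142 were higher and 66 lower by that threshold. It is expected to pass a share of 0.05 of genes where nothing differs, so these counts are not read as changed genes. For the 24 genes the adjusted p from limma lay between 0.75 and 1, with standard errors of the differences from 0.09 to 0.29. With 2 arrays in each group, the smallest 2-sided p of an exact permutation test is 0.333, so differences are described below by their size, by the overlap of the arrays and by each repeat number. Fewer cells of a kind and less RNA per cell cannot be told apart in these bulk samples.

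**Figure D1:**
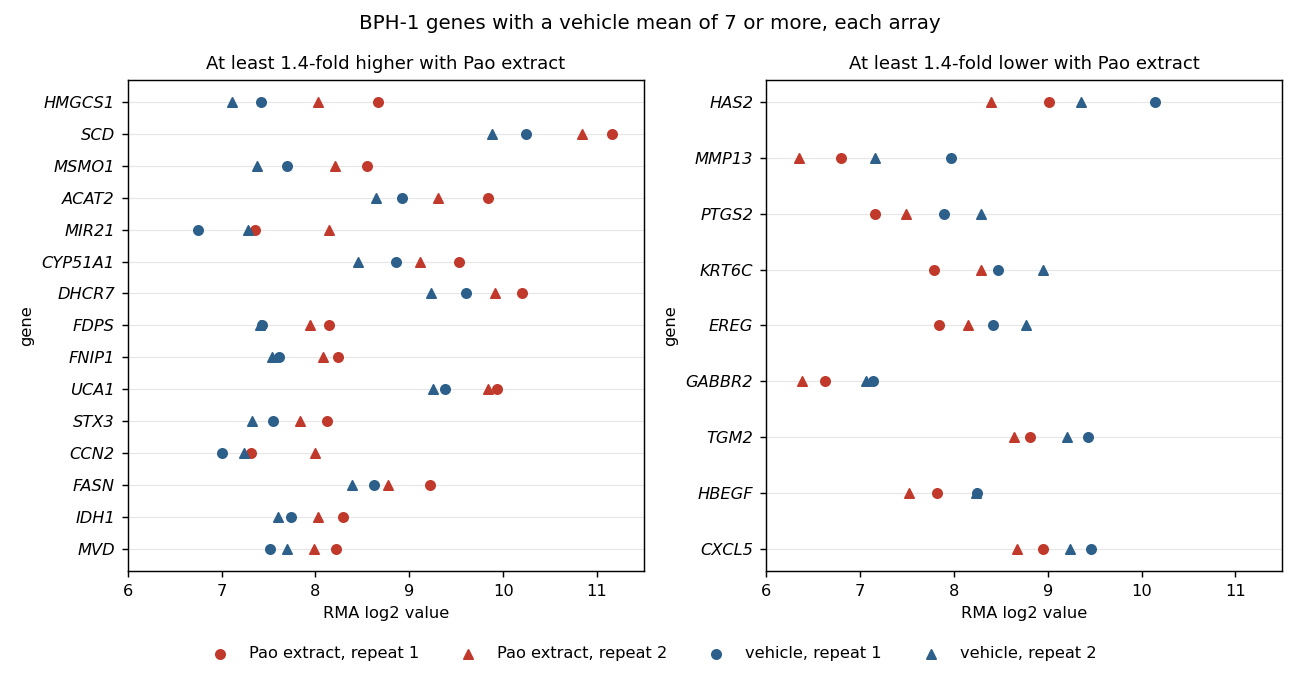
RMA log2 value (horizontal axis) of each BPH-1 array for the 15 genes at least 1.4-fold higher (left panel) and the 9 genes at least 1.4-fold lower (right panel) among genes with a vehicle mean of 7 or more, in red for Pao extract and blue for vehicle, as circles for repeat 1 and triangles for repeat 2. In every gene the 2 Pao extract arrays lie on the same side of the 2 vehicle arrays, and for MIR21 and CCN2 the gap between the groups is narrow.

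Genes of sterol synthesis made up the largest block on the higher side. Of 22 genes on the list of sterol synthesis, 19 were measured, 18 lay above 0 and 18 had Pao extract arrays that lay entirely above the vehicle arrays, against 14.4% of all genes. The median difference of the list was 0.49, and that of all genes was -0.01. The other 3 genes of the list were not analysed here. Of the 13 members with a vehicle mean of 7 or more, 10 were at least 1.2-fold higher within both repeat numbers, a threshold that 0.768% of the genes at this level passed.

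The first steps condense acetyl-CoA units. HMGCS1, the HMG-CoA synthase, had 8.67 and 8.03 with Pao extract and 7.42 and 7.11 with vehicle, the largest difference among genes at this level at 1.09 (2.13-fold, standard error 0.21, limma adjusted p = 0.764). ACAT2, the cytosolic thiolase that makes acetoacetyl-CoA, had 9.83 and 9.31 with Pao extract and 8.92 and 8.64 with vehicle. Both genes thus stood apart from vehicle on each array, although the Pao extract arrays of HMGCS1 differed from each other by more than the vehicle arrays did. The kinases that follow differed little. PMVK, the phosphomevalonate kinase, had 7.23 and 7.26 with Pao extract and 7.17 and 7.40 with vehicle, so that its groups overlapped and its difference was -0.04. MVK had a difference of 0.17 with values of 6.37 and 6.22 against 6.07 and 6.19. The mevalonate decarboxylase MVD was higher, with 8.22 and 7.98 with Pao extract and 7.52 and 7.69 with vehicle. Farnesyl diphosphate synthase, FDPS, had 8.14 and 7.94 against 7.43 and 7.41. GGPS1, which leads off towards prenylation of proteins rather than sterol, had a difference of 0.16.

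In the later part of the pathway, from squalene to cholesterol, all 11 measured genes lay above 0. MSMO1, the sterol methyl oxidase, had 8.55 and 8.20 with Pao extract and 7.70 and 7.38 with vehicle, a difference of 0.84 (1.79-fold, standard error 0.14, limma adjusted p = 0.75). Its differences within the repeat numbers, 0.85 and 0.82, were closer to each other than the arrays of either group were. CYP51A1, the lanosterol demethylase, had 9.52 and 9.11 with Pao extract and 8.85 and 8.45 with vehicle, and differences of 0.67 and 0.66 within the repeat numbers. DHCR7, which makes the last double bond reduction to cholesterol in one branch, had 10.20 and 9.91 against 9.60 and 9.23. In both enzymes the second repeat lay below the first in each group, and the treatment difference was of similar size in both. The squalene epoxidase SQLE had differences of 0.49 and 0.45, the scaffold protein ERG28 0.39 and 0.29 and the reductase TM7SF2 0.36 and 0.30 within the repeat numbers. NSDHL and EBP were above 0 in both repeat numbers but below 1.2-fold in the second, at 0.17 and 0.16. Of the 13 members at the level of 7, the first repeat lay above the second for 11 with Pao extract and for 9 with vehicle.

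**Figure D2:**
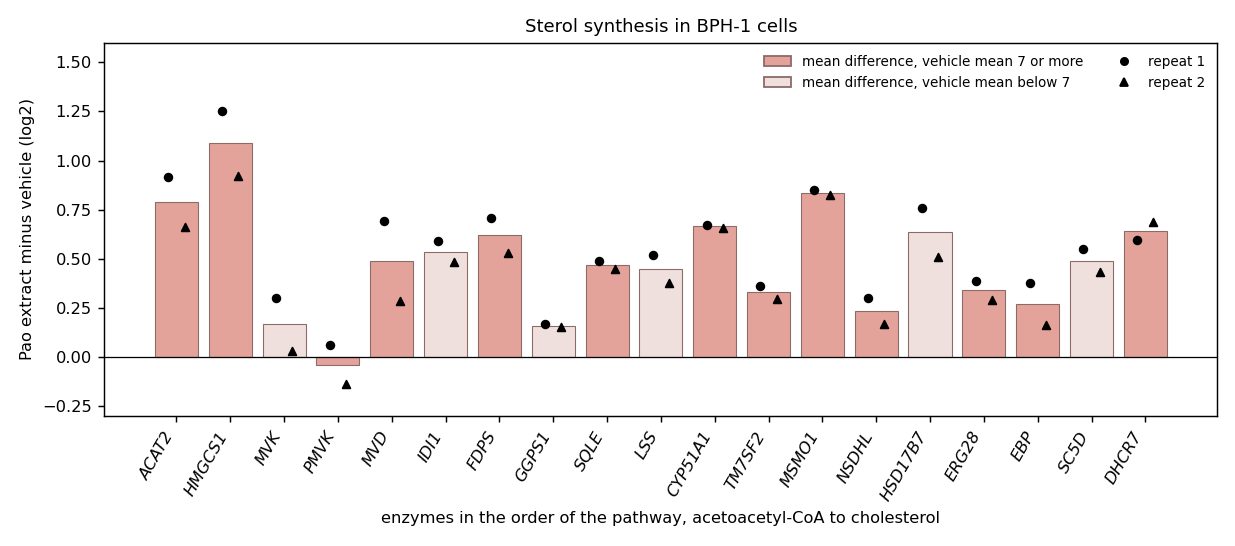
Difference of the mean log2 values, Pao extract minus vehicle (bars), of the 19 measured genes of sterol synthesis in BPH-1 cells in the order of the pathway, with circles for the difference within repeat 1 and triangles for that within repeat 2, and pale bars for genes with a vehicle mean below 7. PMVK alone has a bar below 0, and HMGCS1, MSMO1 and ACAT2 have the tallest bars, from 0.79 to 1.09.

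Promoter windows from RefSeq (GRCh38.p14, 250 bases before to 50 after the gene start) were found for 17 of the 19 genes. The CCAAT box, searched as CCAAT on both strands, was in 13 of these windows (76.5%), in 35.7% of all 27305 windows and in 38.1% of those of genes with a vehicle mean of 7 or more. It was also in 7 of 10 windows (70%) of the matrix protease list and in 12 of 24 (50%) of the chemokine list, whose members mostly lay below 0, so it does not mark the higher genes alone. The letters TCACNCCAC of the sterol regulatory element, also searched on both strands, were in 0 of the 17 windows and in 1.15% of all windows, and no match says only that these letters are not in this window. The stretches below are the boxes nearest before the start in the 4 genes with the largest differences at the level of 7 that hold one, shown because these genes differed in the same direction. They are given 5′ to 3′ on the strand of the gene, with the box or its complement ATTGG in capitals: HMGCS1 at chr5:43313488-43313532 (minus strand), MSMO1 at chr4:165327615-165327659 (plus), DHCR7 at chr11:71448417-71448461 (minus) and FDPS at chr1:155308795-155308839 (plus).
HMGCS1: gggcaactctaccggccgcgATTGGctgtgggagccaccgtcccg
MSMO1: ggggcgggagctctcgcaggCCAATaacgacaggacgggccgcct
DHCR7: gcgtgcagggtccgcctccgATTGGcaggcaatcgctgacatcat
FDPS: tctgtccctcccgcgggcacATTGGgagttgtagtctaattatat
A match is a description of the reference sequence, and binding was not measured here.

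Genes that sense, take up and move sterol were more mixed than the enzymes. Of 16 measured members 11 lay above 0, with a median difference of 0.08. The feedback genes of the pathway lay just below the level of 7. INSIG1, which retains the SREBP complex, had 8.33 and 7.59 with Pao extract and 6.91 and 6.71 with vehicle. STARD4, a cytosolic sterol carrier, had 7.58 and 7.41 against 6.70 and 6.58, the lowest adjusted p of the comparison (0.0914 from limma, and 0.0249 when limma was fitted only on genes with a BPH-1 mean of 7 or more). With a vehicle mean of 6.64, STARD4 entered that second fit only through its Pao extract arrays, so the smaller p-value adds no support. NPC1, which moves cholesterol out of lysosomes, had 8.77 and 8.52 with Pao extract and 8.22 and 8.16 with vehicle. SREBF2, the factor that acts mainly on sterol genes, had 7.11 and 7.04 against 6.76 and 6.74. SREBF1 had a difference of 0.20, while SCAP, MBTPS1 and MBTPS2, which escort and cut the SREBP proteins, had -0.07, 0.07 and 0.01. The window of SREBF2 holds the letters TCACNCCAC, which matched in none of the 17 windows of sterol synthesis genes. Other forms of the element were not searched. The stretch lies at chr22:41832952-41833000 on the plus strand, with the letters in capitals.
SREBF2: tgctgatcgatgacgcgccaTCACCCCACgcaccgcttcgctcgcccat
The difference of SREBF2 was close in both repeat numbers, at 0.35 and 0.30. LXR receptors and efflux genes, 8 measured, had a median of 0.05.

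Fatty acid synthesis showed a few large members. Of 18 measured genes 17 lay above 0, where 43.0% of all genes did. In 11 the Pao extract arrays lay above the vehicle arrays without overlap, against 14.4% of all genes. The median difference was 0.11 over all members and 0.26 over the 10 at the level of 7. SCD, the stearoyl-CoA desaturase, had 11.16 and 10.83 with Pao extract and 10.25 and 9.88 with vehicle, a difference of 0.93 (1.91-fold, standard error 0.16, limma adjusted p = 0.75). FASN, the fatty acid synthase, had 9.22 and 8.77 against 8.62 and 8.39. ACACA, which makes malonyl-CoA, and ACSL4, which activates arachidonic acid, had differences of 0.30 each with nearly the same size in both repeat numbers. ACLY and the desaturase FADS2 had 0.27 and 0.24, each without overlap. ELOVL1, ELOVL5, ELOVL6 and FADS3, which lengthen or desaturate fatty acids, stayed between -0.02 and 0.11. IDH1, the cytosolic isocitrate dehydrogenase that yields NADPH and is on none of the lists, had 8.29 and 8.03 with Pao extract and 7.74 and 7.60 with vehicle.

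Outside lipid metabolism, the higher genes fell into small groups. MIR21, the gene of a microRNA that is abundant in epithelial cells, had 7.36 and 8.15 with Pao extract and 6.75 and 7.28 with vehicle. Its difference of 0.74 was the fifth largest at this level, yet the lower Pao extract array lay barely above the higher vehicle array, and the vehicle mean of 7.01 only just met the level. The annotation does not say whether the probe set reads the precursor, and the arrays do not give a level of the mature arm, whose sequence is shown with the seed (bases 2 to 8) in capitals to identify the gene (RefSeq, GRCh38.p14, chr17:59841273-59841294, plus strand).
hsa-miR-21-5p: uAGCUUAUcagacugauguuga
The long noncoding RNA UCA1, named for urothelial carcinoma, had 9.93 and 9.84 with Pao extract and 9.38 and 9.26 with vehicle. MALAT1, a nuclear long noncoding RNA, had 10.51 and 10.48 against 10.12 and 10.06. In both RNAs the arrays of a group lay closer to each other than to the other group, and the differences within the repeat numbers were 0.55 and 0.58 for UCA1 and 0.39 and 0.42 for MALAT1.

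Further higher genes were FNIP1, SQSTM1, FTL and a few amino acid carriers. FNIP1, a partner of folliculin in mTORC1 and AMPK signalling, had 8.24 and 8.08 with Pao extract and 7.61 and 7.54 with vehicle (difference 0.58, standard error 0.09, limma adjusted p = 0.75). SQSTM1, the autophagy receptor p62, had 7.97 and 8.01 with Pao extract and 7.49 and 7.75 with vehicle. FTL, the ferritin light chain, had 11.18 and 11.26 against 10.80 and 10.87, and the pseudogene FTLP3, whose sequence is nearly the same, had 0.34, so the source of this signal is uncertain. The amino acid carriers SLC7A8, SLC7A11 and SLC38A2 had differences of 0.48, 0.30 and 0.29, and each passed 1.2-fold within both repeat numbers. SLC7A11 nevertheless overlapped between the groups, with 8.81 and 8.35 with Pao extract and 8.49 and 8.08 with vehicle. Of 36 measured genes of lysosome and autophagy, 28 lay above 0 with a median of 0.11, and CTSC, a cathepsin, was the exception in size at -0.35. Of 27 measured targets of NRF2, 21 lay above 0 with a median of 0.13, while HMOX1, an often used target of NRF2, had 0.00 and pointed in opposite directions in the repeat numbers (0.26 and -0.26).

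The matricellular genes CCN1 and CCN2, targets of YAP, were higher mainly in 1 repeat number. CCN2 had 7.32 and 8.00 with Pao extract and a mean of 7.12 with vehicle, and CCN1 had 8.55 and 9.16 against 8.45 and 8.37. Within the repeat numbers the differences were 0.32 and 0.77 for CCN2 and 0.10 and 0.79 for CCN1, so the second Pao extract array carried most of both. The other targets were smaller. Of 18 measured YAP targets 14 lay above 0 with a median of 0.06, and AXL and AJUBA had 0.07 and 0.05. TPM1, a tropomyosin of stress fibres, showed the same pattern, with 0.21 and 0.52 in the repeat numbers.

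On the lower side, the leading genes were HAS2, MMP13, PTGS2 and KRT6C. HAS2, a hyaluronan synthase, had 9.02 and 8.40 with Pao extract and 10.14 and 9.35 with vehicle, a difference of -1.04 (2.05-fold lower, standard error 0.28, limma adjusted p = 0.9). HAS3, a further synthase, had a difference of -0.20 at a vehicle mean just above the level. CD44, the hyaluronan receptor, had -0.12, and UGDH, which makes the precursor UDP-glucuronate, lay on the higher side at 0.31, with 8.70 and 8.63 with Pao extract and 8.34 and 8.37 with vehicle. The genes of hyaluronan therefore did not share a direction, with 5 of 11 above 0.

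Of 18 measured matrix proteases, inhibitors and plasminogen genes, 15 lay below 0, with a median of -0.09, and all 8 members at the level of 7 lay below 0. That level was set on the vehicle arrays, which also enter the difference, so it can leave out members that are higher with Pao extract. Of all genes at the level, 50.4% lay above 0. MMP13, a collagenase, had 6.80 and 6.35 with Pao extract and 7.97 and 7.16 with vehicle, a difference of -0.99 (1.99-fold lower, standard error 0.24, limma adjusted p = 0.844). MMP1, the interstitial collagenase, had 10.05 and 9.72 against 10.31 and 10.35, with -0.25 and -0.63 within the repeat numbers. The urokinase PLAU and its receptor PLAUR had -0.27 and -0.18, and the tissue factor F3 had -0.08 with overlapping arrays. Within the repeat numbers PLAUR had -0.01 and -0.35, so its difference came from the second. MMP7, the matrilysin, just below the level of 7, ran the other way at 0.26, with 7.17 and 7.30 with Pao extract and 6.93 and 7.01 with vehicle. The other members above 0, the inhibitors SERPINE2 and TIMP4, had 0.04 and 0.01. Letters of an AP-1 site (TGANTCA, both strands) were in 4 of the 10 promoter windows found for this list (40%), in 7.76% of all windows and in 3.89% of those of genes at the level of 7. The 4 windows were those of MMP7 (0.26), F3 (-0.08), PLAUR (-0.18) and MMP10 (-0.42, at a vehicle mean of 4.64), so the site was found on both sides of 0.

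Several ligands of the EGF receptor family had lower means with Pao extract, and the receptor itself had nearly equal means. Of 14 measured genes of the family 8 lay below 0, near the share of all genes (57%). Of the 8 at the level of 7, 3 were at least 1.2-fold lower in both repeat numbers, against 0.426% of the genes at this level. EREG, the ligand epiregulin, had 7.84 and 8.15 with Pao extract and 8.42 and 8.77 with vehicle, and -0.58 and -0.62 within the repeat numbers. HBEGF, the heparin-binding ligand, had 7.82 and 7.52 against 8.25 and 8.24 (difference -0.57, standard error 0.09, limma adjusted p = 0.75). NRG1, a neuregulin, had 8.93 and 8.60 with Pao extract and 9.32 and 8.96 with vehicle, and its further probe set also lay below 0, at -0.58. The ligand AREG was not analysed here. EGFR itself had 9.32 and 9.36 with Pao extract and 9.35 and 9.33 with vehicle, and the sheddases ADAM10 and ADAM17 had 0.05 and 0.09. ERRFI1, a feedback inhibitor of the receptor, had 9.71 and 8.89 with Pao extract and 9.78 and 9.59 with vehicle, so that its difference of -0.38 came from the second Pao extract array. The immediate early and feedback genes downstream showed no shared shift, with 16 of 31 above 0 and a median of 0.00. SPRY2 and EGR1 lay on the higher side, and EGR1 had 7.59 and 7.66 with Pao extract and 6.33 and 7.38 with vehicle, a spread between the vehicle arrays larger than its difference.

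PTGS2, the inducible cyclooxygenase, had 7.16 and 7.49 with Pao extract and 7.89 and 8.29 with vehicle, a difference of -0.77 (1.70-fold lower, standard error 0.19, limma adjusted p = 0.859), with -0.73 and -0.80 within the repeat numbers. The list of prostaglandin synthesis was mixed, with 8 of 13 below 0 and a median of -0.04, where 57% of all genes lay below 0. Without overlap, 4 were lower and 2 higher, against 18.8% and 14.4% of all genes. PTGES, the inducible prostaglandin E synthase, had 8.66 and 8.79 with Pao extract and 8.40 and 8.54 with vehicle, a difference of 0.26 in the other direction. PTGR1, which inactivates prostaglandins, had 0.18, while the synthases PTGES2 and PTGES3 had -0.11 and -0.09, the first without overlap.

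Chemokines and cytokines mostly lay below 0, at 22 of 33 measured with a median of -0.10, where 57% of all genes lay below 0. In 14 of them the Pao extract arrays lay below the vehicle arrays without overlap, against 18.8% of all genes. Lists of cell types that the line should lack leaned the same way, with 15 of 17 stromal markers below 0 (8 without overlap, median -0.08) and 14 of 15 leukocyte markers (6 without overlap, median -0.06), so the count is not particular to chemokines. Only 7 of the 33 chemokines and cytokines and 1 marker in each of those lists met the level of 7. The neutrophil chemokine CXCL5 had 8.95 and 8.67 with Pao extract and 9.46 and 9.23 with vehicle. CXCL8 had 8.02 and 7.85 against 8.39 and 8.30, and IL1A 8.03 and 8.35 against 8.31 and 8.69. The groups did not overlap for CXCL5 and CXCL8, while those of IL1A did, although IL1A was lower within both repeat numbers. CXCL1 averaged 9.57 with Pao extract and 9.81 with vehicle, without overlap, and fell short of 1.2-fold. LIF and IL18 were close to 0, at -0.07 and -0.02, and CXCL16 had 0.16. Among subunits and regulators of NFκB, 13 of 21 lay below 0 with a median of -0.01, near that of all genes.

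An NFκB site (GGANTTTCC, both strands) was found in 10 of 24 promoter windows of chemokines and cytokines (41.7%), in 1.64% of all windows and in 1.67% of those of genes at the level of 7. The 4 stretches of chromosome 4 below were chosen after the values were seen, since the Pao extract arrays of these genes lay below the vehicle arrays without overlap. The vehicle mean of CXCL6 was 6.48, below the level of 7, with a difference of -0.46. The stretches are given on GRCh38.p14 and on the strand of the gene, with the site in capitals. They lie at chr4:73740458-73740506 for CXCL8, chr4:73836569-73836617 for CXCL6 and chr4:73869295-73869343 for CXCL1, all on the plus strand, and at chr4:73998739-73998787 for CXCL5 on the minus strand.
CXCL8: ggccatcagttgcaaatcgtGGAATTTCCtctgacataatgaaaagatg
CXCL6: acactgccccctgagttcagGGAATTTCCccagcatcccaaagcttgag
CXCL1: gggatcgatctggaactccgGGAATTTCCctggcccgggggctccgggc
CXCL5: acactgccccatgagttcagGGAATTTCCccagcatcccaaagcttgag
The motif also matched in the windows of 6 further genes, all below the level of 7. CXCL2, CXCL3 and IL32 had differences of -0.17, -0.30 and -0.16 without overlap, and CXCL10, CXCL11 and IL6 had -0.12, 0.02 and 0.07 with arrays that overlapped.

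Keratins and other genes of basal cells were mostly slightly lower. Of 14 measured keratins 11 lay below 0 with a median of -0.12, and of 7 measured markers of basal prostate cells 6 lay below 0 with a median of -0.19. Of all genes 57% lay below 0, and 14 of 15 leukocyte markers also did, with a median of -0.06. At the level of 7, 5 keratins lay below 0 and 2 above. KRT80 was 1 of the 2, at 0.22 without overlap. KRT5, the keratin that defines basal cells, had 10.63 and 10.75 with Pao extract and 10.92 and 10.97 with vehicle. The hemidesmosome integrins ITGA6 and ITGB4 had -0.21 and -0.19, each without overlap. KRT6C, a keratin of activated epidermis, had 7.79 and 8.29 against 8.47 and 8.95, with -0.69 and -0.66 within the repeat numbers, but KRT6A and KRT6B, which are nearly identical to it, were not analysed and may share its signal. Markers of epithelium in general did not follow, with 14 of 20 above 0 and a median of 0.05, and the adherens and tight junction genes CDH1 and CLDN7 had 0.10 and 0.21.

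Of the remaining lower genes several encode proteins of adhesion and cell contact. TGM2, a transglutaminase that crosslinks matrix, had 8.81 and 8.64 with Pao extract and 9.43 and 9.20 with vehicle. Thrombospondin 1, THBS1, had 9.98 and 9.89 against 10.50 and 10.27, and tenascin C, TNC, had 8.11 and 7.82 against 8.50 and 8.22. GJA1, the gap junction protein connexin 43, had 6.82 and 6.53 with Pao extract and 7.34 and 6.97 with vehicle. GABBR2, a subunit of the metabotropic GABA receptor, had 6.63 and 6.38 against 7.14 and 7.07, close to the level of 7. Each of these genes was lower without overlap and passed 1.2-fold in both repeat numbers. SQOR, which oxidises sulfide in mitochondria, had -0.34 with 8.15 and 8.24 against 8.45 and 8.61.

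**Figure D3:**
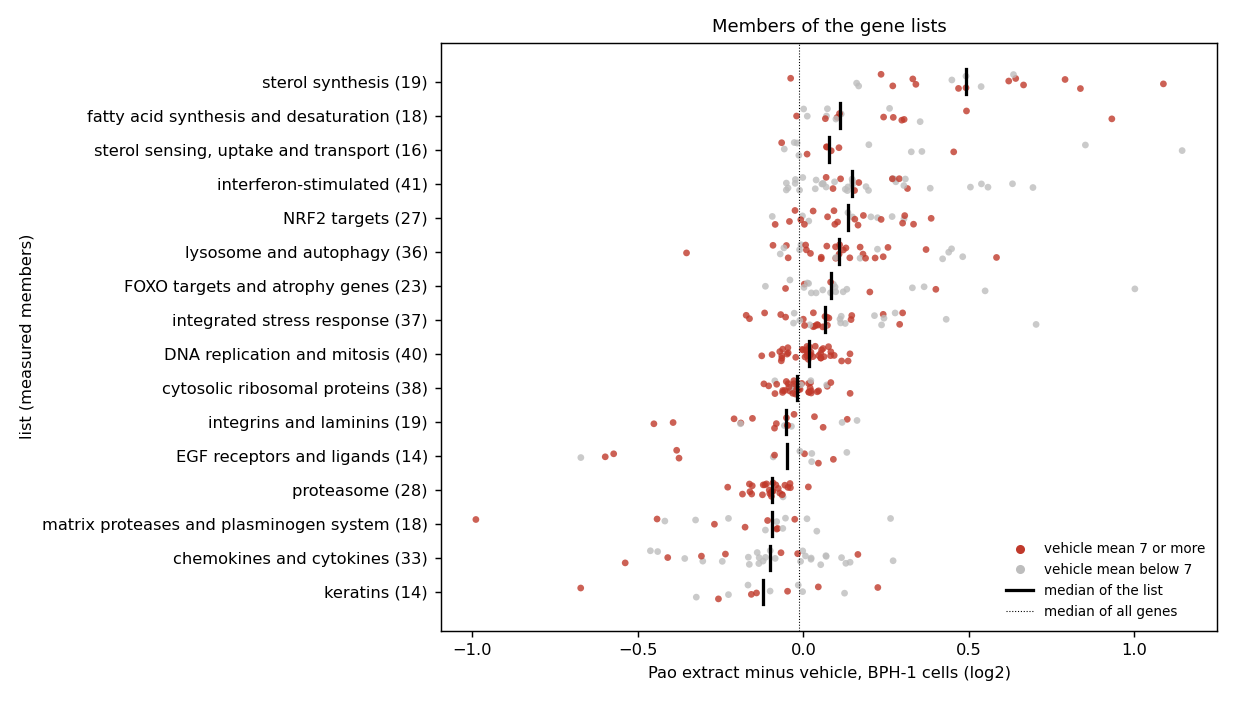
Difference of the mean log2 values, Pao extract minus vehicle (horizontal axis), of each measured member of 16 gene lists in BPH-1 cells, in red for genes with a vehicle mean of 7 or more and grey below it, with thick bars for the median of a list and a dotted line for the median of all genes. Sterol synthesis lies clearly to the right, with a median of 0.49, proteasome genes form a narrow cluster around -0.10, and several other lists have a few members far from a median near 0.

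Lists with small shifts were read beside all genes. Proteasome subunits had small differences of mostly the same sign, with 27 of 28 below 0 and a median of -0.10, and of the 27 at the level of 7, 25 lay below 0 in both repeat numbers, where 35.3% of the genes at this level did. PSMB5, the catalytic subunit with chymotrypsin-like activity, had the largest of these differences, -0.23, with 8.35 and 8.13 with Pao extract and 8.55 and 8.38 with vehicle, without overlap. All differences of the list lay between -0.23 and 0.01, and no member reached 1.2-fold. Subunits of the nuclear encoded respiratory chain and cytosolic ribosomal proteins, other sets of abundant genes, had medians of -0.03 and -0.02. Genes of DNA replication and mitosis had a median of 0.02 with 27 of 40 above 0, and cyclins and inhibitors of G1 had -0.03. Interferon-stimulated genes lay above 0 in 34 of 41 measured, with a median of 0.15, where 43.0% of all genes lay above 0. Without overlap, 17 were higher and 0 lower, against 14.4% and 18.8% of all genes. Of the 8 at the level of 7, 0 passed 1.2-fold in both repeat numbers. The larger members of this list were below the level, such as IFIT3 with 7.82 and 7.28 with Pao extract and 7.08 and 6.76 with vehicle. IFIT2 had 1.14 in the first repeat number and 0.24 in the second. Of 37 measured genes of the integrated stress response, 28 lay above 0 with a median of 0.07.

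Read by repeat number, 45 genes at the level of 7 (0.768%) were at least 1.2-fold higher with Pao extract in both, and 25 (0.426%) at least 1.2-fold lower. The lists were chosen and joined with earlier results of these data known, so their counts here are descriptions. At the level of 7, the lists of sterol synthesis, sterol sensing and fatty acids hold 13, 7 and 10 genes. Those of EGF receptors and ligands, proteases, hyaluronan, cytokines and keratins hold 8, 8, 6, 7 and 7. Of the 45 higher genes, 15 are on the sterol and fatty acid lists and 22 on no list. Of the 25 lower genes, 9 are on the lists of EGF receptors and ligands, proteases, hyaluronan, cytokines and keratins and 10 on no list. Among those on no list, named after their values were seen, were RDH11, a retinol dehydrogenase, with 0.34, CHKA, a choline kinase, with 0.32, and DNASE2, a lysosomal nuclease, with 0.31 on the higher side. ALDH1A3, a retinal dehydrogenase chosen in the same way, averaged 9.18 with Pao extract and 9.64 with vehicle and was lower in each repeat number by its difference (-0.52 and -0.40), although the arrays of the groups overlapped.

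The differences of one repeat number were then read in the other, whose differences had no part in the ranking. Of the 50 genes with the largest positive difference in the first, 49 were also higher in the second, 34 of them by at least 1.2-fold, with a median of 0.31 there, where 51.9% of all genes at this level were higher and 2.01% by 1.2-fold. Of the 50 genes chosen as highest in the second, 48 were higher in the first. For the lower side, 37 of 50 chosen in the first were lower in the second, with a median of -0.17, and 48 of 50 chosen in the second were lower in the first. The higher side thus carried over in both directions, and the lower side carried over less when it was chosen in the first repeat number. Over the 5863 genes the differences of the repeat numbers correlated with r = 0.63, and over all 22465 genes with r = 0.36, a description across genes of which many share probes or pathways. The shift of the second repeat against the first was also shared by the groups, with r = 0.77 between Pao extract and vehicle over the 5863 genes. SHISA2, chosen after its values were seen, had the widest disagreement, with 0.09 and -0.93, from 8.36 and 7.76 with Pao extract and 8.27 and 8.69 with vehicle. H/ACA and Cajal body RNAs at the level of 7 had a median of -0.02 in the first and 0.09 in the second repeat number, and C/D box small nucleolar RNAs -0.01 and 0.10.

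**Figure D4:**
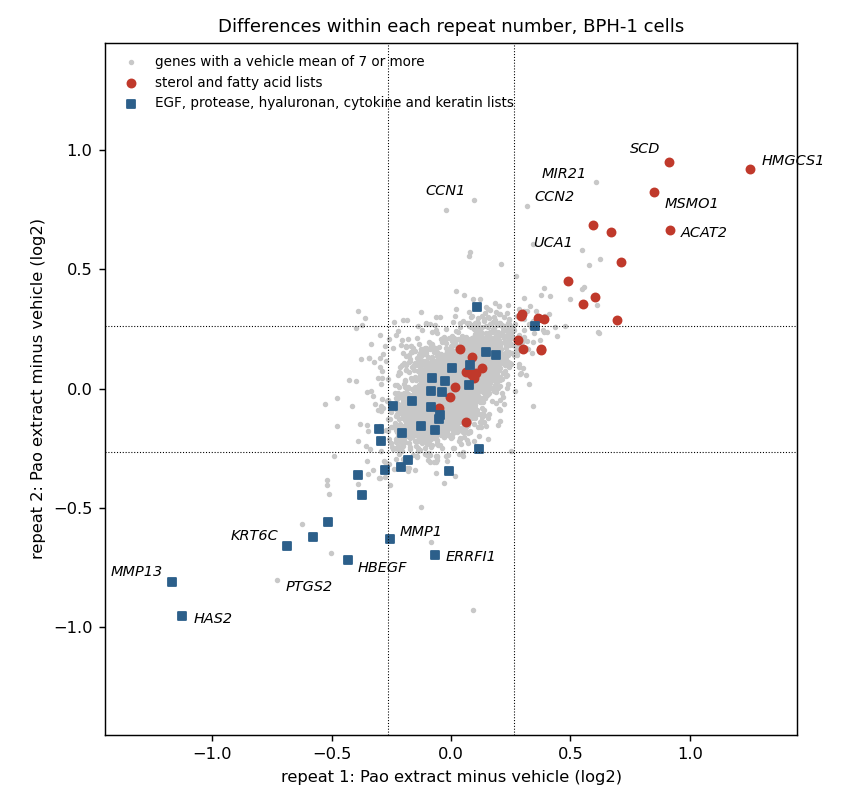
Difference of log2 values, Pao extract minus vehicle, within repeat 1 (horizontal axis) and within repeat 2 (vertical axis) for the 5863 BPH-1 genes with a vehicle mean of 7 or more, with dotted lines at 1.2-fold. Genes of the sterol and fatty acid lists (red circles) reach far into the upper right corner, HAS2, MMP13, KRT6C, EREG and HBEGF (blue squares) and PTGS2 lie in the lower left corner, and CCN1 and ERRFI1 lie near the axis of repeat 2.

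In the WPMY-1 arrays the sterol enzymes differed in the same direction, with a list median of 0.81, and the leading lower genes were divided. HAS2 had -1.18 there, THBS1 -1.01 and EREG -0.09, while MMP13 had 0.09, PTGS2 0.33, KRT6C 0.07 and TGM2 0.22. The levels of MMP13, PTGS2 and EREG were low there, with means of 3.63, 4.32 and 3.97 with Pao extract and 3.54, 3.99 and 4.06 with vehicle. The difference between the lines was tested with an interaction in limma over all genes. No gene passed an adjusted p of 0.05, with the lowest at 0.24, so none of these genes is shown to respond differently in the lines. FBXO32, a ubiquitin ligase gene below the level of 7, had 1.00 in BPH-1 cells against -0.19 in WPMY-1 cells, and it and TGM2 each had an adjusted p of 0.557 in that limma test.

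Just outside the level of 7 lay IFIT3 with a Pao extract mean of 7.55 and a vehicle mean of 6.92, ID4, an inhibitor of DNA binding, with 7.67 and 6.88, and EGR1 with 7.63 and 6.85. Just inside lay MIR21 with 7.75 and 7.01, GABBR2 with 6.51 and 7.10 and CCN2 with 7.66 and 7.12. Among single probe sets, 191 of 67528 passed 1.4-fold on the higher side and 106 on the lower side, and of the 10205 with a vehicle mean of 7 or more 31 and 40. Of these, 16 and 30 had several symbols or none, so most of the lower probe sets well above background remain without a name here.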

How the data were processed

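The authors deposited log2 values after RMA, 1 per probe set and array, for Affymetrix Human Transcriptome Array 2.0 chips of total RNA. The version of RMA and the genome build of the probe sets are not given in the sources used here, and no array coordinates were used. Values were used as deposited, without a pseudocount. Names came from GEO's annotation of the platform, and 1543 with several symbols and 42204 not listed were left unnamed. The number of arrays limits the precision. Groups came from the sample titles. Differences are means of Pao extract minus vehicle, and limma 3.58.1 in R 4.3.3 fitted 1 mean per group over all 8 arrays with Benjamini-Hochberg adjustment over 22465 genes, after a check on simulated data. Repeat numbers stand in the titles without saying what they mark, so differences within a number are descriptions. Named are the 30 largest differences each way among genes at the level of 7 without overlap, up to 6 members of each of 44 lists (more where a list is described by member), genes the study names and the 10 lowest limma p-values. Members and lists were chosen with earlier results of these data known. Alternatives were a further quantile normalization, centring, other probe sets, levels, cutoffs and fits, a replicate block, the methods' t-test and leaving out each array.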

Additional observations from a re-analysis of the deposited data

Results flagged for a closer look

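The 4 genes flagged here met the level of 7 in BPH-1 cells. In each, the Pao extract arrays lay above vehicle in one line and below it in the other. They are not a full count of genes with opposite signs in the lines. SAMD9 (0.27 for BPH-1, -0.52 for WPMY-1) and KRT5 (-0.26 and 0.46), for instance, met the level too. The difference of the responses, BPH-1 minus WPMY-1, was 1.37 for MIR21 (0.74 for BPH-1, -0.63 for WPMY-1, interaction adjusted p = 0.686 from limma) and 1.18 for UCA1 (0.56 and -0.62, unadjusted p = 5.83e-05, adjusted p = 0.327 from limma). It was 0.83 for TPM1 (0.36 and -0.47) and -0.71 for SQOR, the sulfide oxidoreductase of mitochondria (-0.34 and 0.37), each with an adjusted p of 0.686 from limma. None of these differences passed the test. In WPMY-1 cells MIR21, UCA1 and SQOR were below that level, with means of 5.77, 4.09 and 5.28 with Pao extract and 6.40, 4.71 and 4.91 with vehicle.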

How the results depend on the processing

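Counts at 1.4-fold stayed within 1.5 times under further quantile normalization, centring and other choices of probe sets. With a vehicle mean of 6 or more in place of 7, 30 genes passed 1.4-fold on the higher side and 96 passed 1.2-fold there in both repeat numbers, and with 8 or more the counts were 6 and 19. At 1.1-fold in both repeat numbers, 264 genes were higher and 172 lower. No gene passed limma in the main design. Fitted only on genes with a BPH-1 mean of 7 or more, 1 higher gene passed, STARD4 (adjusted p = 0.0249 from limma). Its vehicle mean was 6.64, so it entered this fit only through its Pao extract arrays. With a replicate block over all 8 arrays 3 higher genes passed, FBXO32, SNORA2A and STARD4 (adjusted p = 0.048 each from limma). The replicate block changed no other call. The repeat numbers are only numbers in the titles, and the shift of the second repeat against the first correlated with r = 0.77 between the groups over the 5863 genes at the level of 7. The methods' t-test gave 575 higher and 583 lower of 22465 genes before adjustment and 0 after it. Without adjustment, a threshold of 0.05 is expected to pass a share of 0.05 of genes where nothing differs, so the unadjusted counts are not read as changed genes. The cause of these changes between settings was not tested. When any array was left out, a group mean rests on 1 array, which raises the spread of the differences by construction. Genes at least 1.4-fold higher then numbered 75 to 106 (106 without the second Pao extract array) and lower 29 to 55 (55 without the first Pao extract array, 29 without the second, 30 without the first vehicle array and 43 without the second). At the level of 7 the lower genes numbered 8 to 22 (22 without the first Pao extract array, 14 without the first and 19 without the second vehicle array), and in the remaining repeat number alone 89 to 120 genes were at least 1.2-fold higher and 70 to 78 lower. Of 850 alternative values of 85 named genes, 5 changed direction, all with an array left out. These were CXCL12 (-0.2128 to 0.0124, above 0 without the second vehicle array), ERRFI1 (-0.7906 to 0.0248, above 0 without the second Pao extract array), FST (-0.751 to 0.0717, above 0 without the second Pao extract array and, at 0.0353, without the first vehicle array) and SNORA65 (-0.1299 to 0.9828, below 0 without the first vehicle array). Of 394 alternative medians of 44 lists, 130 moved by more than the spread between the repeat numbers, and no list with a median of 0.1 or more either way, 9 in all, changed direction.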
